A study of Mus musculus with 19 samples.

Results

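The transcription factors of the CREB family that answer cyclic AMP (cAMP), together with the genes that feed back on cAMP signalling, were followed through both experiments of a mouse study of fibrolamellar carcinoma, a cancer of the liver in which DNAJB1 is fused to PRKACA. They were chosen by name: Crem, Creb1 and Atf1 as the factors, Crtc2 as their co-activator, Sik1 and Sik2 as kinases that restrain the co-activator, and Pde4a, Pde4b, Pde4d and Pde3b as phosphodiesterases that break down cAMP. All 10 genes were among the 13549 genes of the embryo table and among the 17606 gene IDs of the tumour files, and all 10 passed the filter on low values in both. In GENCODE M21 on GRCm38 all 10 are protein-coding genes. The factors lie at chr18:3266048-3337748 (Crem, minus strand), chr1:64532645-64604548 (Creb1) and chr15:100227819-100261244 (Atf1), and Crtc2 at chr3:90254163-90264125. The kinases lie on the minus strand at chr17:31844250-31855804 (Sik1) and chr9:50892801-51009073 (Sik2). The phosphodiesterases lie on the plus strand at chr9:21165714-21213248 (Pde4a), chr4:102087543-102607259 (Pde4b), chr13:108449948-109953461 (Pde4d) and chr7:114415281-114539251 (Pde3b).

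In the first experiment RNA was sequenced from livers taken at embryonic day 18.5 from 5 control embryos (libraries 1 to 5) and 4 fusion embryos (libraries 6 to 9). The fusion embryos carried a DNAJB1-PRKACA-GFP cDNA in Rosa26 behind a LoxP-stop-LoxP (LSL) cassette, and Alb-Cre, in which the albumin promoter drives Cre from mid-gestation, removed the stop in liver cells. The labels do not say which of these alleles the controls carried. In the second experiment FL8 cells, 1 mouse line whose clonality the labels do not give, were grown in gelatin capsules under the flank skin of NSG mice, an immunodeficient strain. Mice were randomized at a tumour size of 75 mm3 and given by mouth either the carrier, 0.5% methocel (5 tumours, vehicle), or palbociclib, an inhibitor of the cell cycle kinases CDK4 and CDK6, at 75 mg/kg (5 tumours), for 3 days followed by 4 days off. The sample labels give methocel for the vehicle tumours, while the description of the series design gives PBS (phosphate-buffered saline), and the labels were followed. No label says whether the samples of a group came from separate litters or cultures, so that p-values measure the spread between these samples only.

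In this pathway, receptors coupled to the stimulatory G protein raise cAMP, cAMP frees the catalytic part of protein kinase A (PKA) from its regulatory subunits, and PKA phosphorylates CREB, CREM and ATF1 at a serine that recruits co-activators. PKA also phosphorylates the SIK kinases and so relieves their hold on CRTC2, which then enters the nucleus and binds CREB. Several products of CREB act back on the signal: the repressor ICER is made from an internal promoter of Crem, SIK1 restrains CRTC2, and phosphodiesterases of the PDE4 family hydrolyse cAMP. In hepatocytes the pathway is known for the response to glucagon during fasting, with the gluconeogenic genes as its classical targets, and PDE3B there answers insulin.

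The promoter windows of the PDE4 genes are shown first, because these paralogs differed in the embryos: Pde4b and Pde4d rose with the fusion and Pde4a did not pass the test. RefSeq promoter sequences (GRCm38.p6) were matched for 6 of the 10 genes (Creb1, Atf1, Sik2, Pde4a, Pde4b and Pde4d), with 11 windows in all. Several starts were matched for Pde4a and Pde4b, and 1 for each of the others, which need not be their only start. No window was matched for Crem, Crtc2, Sik1 and Pde3b, so that Crem, Sik1 and Pde3b, which rose with the fusion, were not searched. The 250 bases before each start were searched on both strands for the cAMP response element TGACGTCA and for the shorter motif TGACG or its reverse complement CGTCA, which the full element contains. The full element was in 0 of the 11 windows, against 1.55% of all 32851 windows of that length, and the shorter motif was in 3 windows, against 17.8%. So few windows cannot tell 0 from a share of 1.55%. These were 1 window of Pde4b, 34 bases before the start, 1 of Pde4a, 50 bases before it, and 1 of Atf1, 90 bases before it. The stretches below run 5′ to 3′ on the plus strand. That of Pde4a is the whole window of 250 bases, which holds no annotated exon. Those of Pde4b and Pde4d end where an annotated exon begins, so that the match of Pde4b, which lies beyond that point, is not printed. Capitals mark the shorter motif. The 3 stretches are Pde4a at chr9:21183851-21184100, Pde4b at chr4:102421305-102421517 and Pde4d at chr13:108653927-108654104. All 3 lie inside the annotated span of their gene, downstream of its first base.
Pde4a: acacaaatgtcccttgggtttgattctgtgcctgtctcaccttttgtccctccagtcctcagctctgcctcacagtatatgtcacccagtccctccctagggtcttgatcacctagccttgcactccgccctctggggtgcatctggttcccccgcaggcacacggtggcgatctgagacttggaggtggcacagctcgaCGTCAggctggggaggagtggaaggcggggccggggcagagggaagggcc
Pde4b: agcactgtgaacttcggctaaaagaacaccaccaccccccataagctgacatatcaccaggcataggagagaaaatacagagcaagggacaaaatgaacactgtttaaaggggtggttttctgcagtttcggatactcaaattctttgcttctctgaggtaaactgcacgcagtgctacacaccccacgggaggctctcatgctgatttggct
Pde4d: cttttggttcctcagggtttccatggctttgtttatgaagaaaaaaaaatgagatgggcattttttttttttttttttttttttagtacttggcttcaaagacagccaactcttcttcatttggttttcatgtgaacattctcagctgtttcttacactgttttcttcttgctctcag
A match to so short a motif is a description of these letters and not a site, and no match says nothing of whether a factor binds.

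With M for 1000000, libraries held 7.66 to 23.1 M counts in the control embryos, 13.5 to 45.6 M in the fusion embryos, 2.96 to 33.9 M recovered reads in the vehicle tumours and 24.9 to 43.1 M in the palbociclib tumours. The embryo libraries fell into 2 sets by the share of counts on ribosomal protein genes, 9.72 to 10.1% in controls 1 and 2 and fusion 8 and 9, and 6.18 to 7.87% in the other 5. No label names a batch behind this split, so the embryo fold changes of the 10 genes are also given within the sets. Xist, which marks female cells, was at 162 to 448 CPM (counts per 1000000) in controls 1 and 2 and fusion 6, 7 and 8 and below 1 CPM in the other 4, so that within the set of lower ribosomal share sex and genotype cannot be told apart. Among the tumours, vehicle 1 stood apart: mitochondrial genes took 46.6% of its reads, where the range elsewhere was 1.24 to 6.47%, and with macrophage markers at a summed 1463 CPM, against 69.9 to 179 CPM. Vehicle 5 was the shallowest library. Hepatocyte markers summed to 159455 to 234704 CPM in the embryos and to 39145 (vehicle 1) to 125441 CPM in the tumours, and all 10 of them were tested in both.

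The transcripts from which the fusion is made were both higher in the fusion embryos. Prkaca, the catalytic subunit of PKA, was at 43.4, 50.5, 38.0, 36.3 and 45.3 CPM in controls 1 to 5 and at 114, 72.4, 53.8 and 52.0 CPM in fusion 6 to 9, a log2 fold change of 0.78 ± 0.22 (SE; adjusted p = 0.0379, edgeR). All fusion livers were above all controls, and fusion 6 was the highest. Dnajb1, a heat shock co-chaperone, had a log2 fold change of 0.42 ± 0.13 (adjusted p = 0.0493), with fusion 9 at 51.7 CPM inside the control range. Whether reads of the transgene were counted on these genes is not stated in the labels.

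With the fusion, 5 of the 10 genes rose and none fell (edgeR, adjusted p under 0.05), where over all 13316 genes tested 12.8% were called, 5.99% as higher and 6.81% as lower. The genes that rose were Crem, Sik1, Pde4b, Pde4d and Pde3b, that is 1 of the 3 factors, 1 of the 2 kinases and 3 of the 4 phosphodiesterases. For 4 of them, Crem, Sik1, Pde4d and Pde3b, the lowest fusion liver was above the highest control, as for 8.37% of all genes tested. None of the 10 had all fusion livers below all controls, which held for 8.15% of all genes. The median log2 fold change of the 10 genes was 0.38, and that of all genes was -0.01. The 10 genes were chosen with earlier results of these data known, so that these counts are no independent evidence of a direction. In whole livers, more cells that express a gene and more RNA per cell cannot be told apart.

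**Figure D1:**
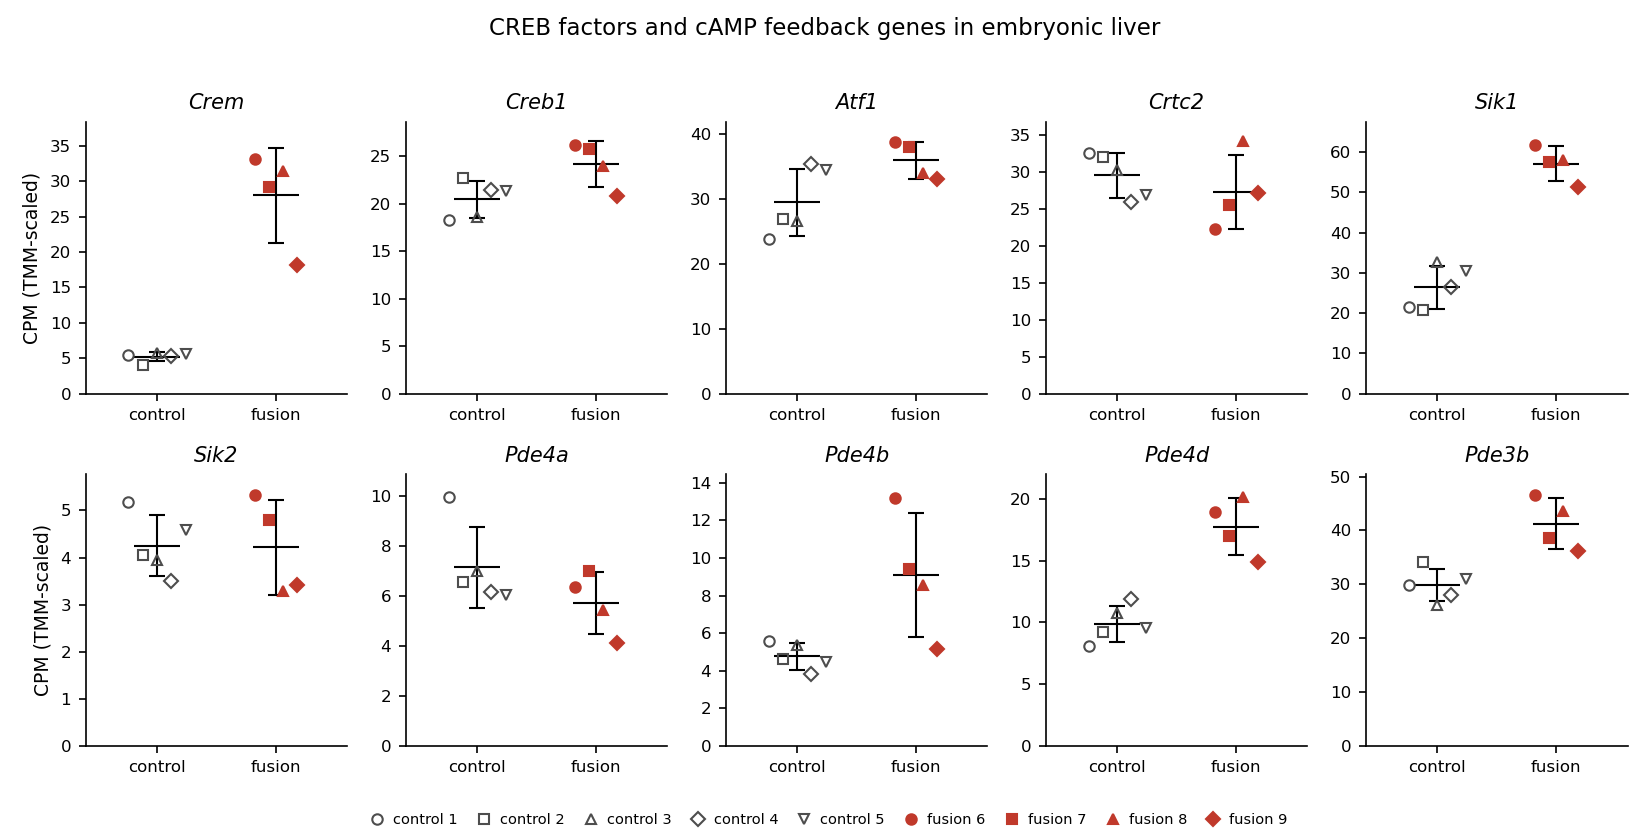
CPM after TMM scaling of each of the 10 genes in the 5 control (open) and 4 fusion (filled red) embryonic livers, 1 panel per gene, with each y axis starting at 0. Horizontal lines are group means and bars are 1 SD. Crem at 18.2 to 33.1 CPM and Sik1 at 51.3 to 61.7 CPM in the fusion livers lie clear of the controls, while for Sik2 and Pde4a the groups overlap.

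Among the transcription factors, Crem, which encodes both activators and the repressor ICER, was low in every control liver. It was at 5.47, 4.04, 5.69, 5.26 and 5.59 CPM in controls 1 to 5 and at 33.1, 29.1, 31.4 and 18.2 CPM in fusion 6 to 9. The lowest fusion liver, fusion 9, was still above 3 times the highest control. The log2 fold change was 2.41 ± 0.18 (SE; 95% interval 2.01 to 2.81; adjusted p = 2.83e-05, edgeR), a 5.31-fold rise. It was 2.34 within the set of higher ribosomal share and 2.5 within the other, and between 2.32 and 2.57 with each library left out. Counts per gene do not separate ICER from the longer forms, and a gene on the opposite strand, Gm6225 overlaps exons of Crem.

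Creb1, the founding member of the family, differed by a log2 fold change of 0.24 ± 0.12 (SE) and did not pass the test (adjusted p = 0.187, edgeR). Its levels were 18.2, 22.7, 18.6, 21.5 and 21.3 CPM in controls 1 to 5 and 26.1, 25.8, 24.0 and 20.8 CPM in fusion 6 to 9, with fusion 9 inside the control range. The 95% interval, -0.01 to 0.50, holds both no difference and a rise by a log2 of 0.50, and the fold change was 0.15 within the set of higher ribosomal share and 0.34 within the other. Atf1, the third factor, was at 23.9, 26.9, 26.7, 35.4 and 34.5 CPM in controls and at 38.8, 38.0, 34.0 and 33.1 CPM in fusion livers, and the highest controls overlapped fusion 8 and 9. Its log2 fold change of 0.28 ± 0.14 (adjusted p = 0.189, edgeR) passed the threshold when the ribosomal set was added as a covariate (0.32, adjusted p = 0.0277). Within the sets of higher and lower ribosomal share it was 0.42 and 0.25.

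Crtc2, the co-activator that carries the fasting signal to CREB in liver, was at 32.6, 32.1, 30.3, 25.9 and 27.0 CPM in controls 1 to 5 and at 22.3, 25.6, 34.2 and 27.2 CPM in fusion 6 to 9. Fusion livers lay on both sides of the controls, and the log2 fold change of -0.12 ± 0.14 (SE) did not pass the test (95% interval -0.42 to 0.18; adjusted p = 0.618, edgeR), with -0.068 and -0.22 within the sets of higher and lower ribosomal share.

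Of the kinases, 1 passed the test. Sik1, which CREB itself induces, was at 21.4, 20.8, 32.8, 26.5 and 30.5 CPM in controls 1 to 5 and at 61.7, 57.7, 58.1 and 51.3 CPM in fusion 6 to 9. Controls and fusion livers did not overlap, and the rise was 2.16-fold, a log2 fold change of 1.11 ± 0.15 (SE; 95% interval 0.79 to 1.43; adjusted p = 0.00111, edgeR). Within the sets of higher and lower ribosomal share it was 1.38 and 1.00. Sik2, a relative with a larger gene, had few reads: 5.17, 4.04, 3.95, 3.49 and 4.58 CPM in controls and 5.34, 4.81, 3.30 and 3.42 CPM in fusion livers. The groups covered nearly the same range, with a log2 fold change of 0.01 ± 0.20 (95% interval -0.43 to 0.44; adjusted p = 0.987, edgeR), and -0.47 and 0.35 within the sets of higher and lower ribosomal share. Part of its exon sequence overlaps Ppp2r1b on the opposite strand, and the labels do not say whether counting used strand.

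Of the phosphodiesterases, Pde4d, known from heart and brain, was clearest. It was at 8.08, 9.20, 10.7, 11.9 and 9.56 CPM in controls 1 to 5 and at 18.9, 17.0, 20.2 and 14.9 CPM in fusion 6 to 9. No fusion liver overlapped a control, and the log2 fold change was 0.84 ± 0.14 (SE; 95% interval 0.52 to 1.15; adjusted p = 0.00406, edgeR), with 1.04 and 0.75 within the sets of higher and lower ribosomal share.

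Pde4b, the PDE4 form known from immune cells and brain, was at 5.59, 4.60, 5.36, 3.82 and 4.45 CPM in controls 1 to 5 and at 13.2, 9.43, 8.58 and 5.13 CPM in fusion 6 to 9. The spread among fusion livers was wide, and fusion 9 lay inside the control range. The log2 fold change of 0.95 ± 0.24 (SE; adjusted p = 0.0256, edgeR) came with 1.34 (adjusted p = 0.00157) within the set of lower ribosomal share and 0.41 (adjusted p = 0.325) within the set of higher share. The call was also lost on leaving out control 4 or 5 or fusion 6, 7 or 8 (adjusted p from 0.0512 to 0.0693) and with Xist as a covariate (0.75, adjusted p = 0.0668). Leukocyte markers, 6 of 6 tested and 0 called, summed to 704 to 1087 CPM in controls and 615 to 768 CPM in fusion livers, with overlap. Macrophage markers, 9 of 9 tested and 0 called, summed to 1050 to 1202 CPM in controls and 903 to 996 CPM in fusion livers, with no overlap between the groups. These sums were scaled to the library total and not by TMM, unlike the levels of Pde4b. Whether the macrophage sums stay apart after TMM scaling was not tested. The part of leukocytes and macrophages in the result was not tested.

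Pde3b, the phosphodiesterase through which insulin lowers cAMP in liver and fat, was at 30.0, 34.2, 26.2, 27.9 and 31.1 CPM in controls 1 to 5 and at 46.6, 38.6, 43.7 and 36.1 CPM in fusion 6 to 9. The groups did not overlap, but the rise was small, 1.38-fold, a log2 fold change of 0.47 ± 0.12 (SE; 95% interval 0.21 to 0.73; adjusted p = 0.0235, edgeR). Within the set of higher ribosomal share it was 0.33 (adjusted p = 0.153) and within the other 0.59 (adjusted p = 0.00971). Leaving out control 3 or 4 or fusion 6 or 8 ended the call (adjusted p from 0.0550 to 0.0635).

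Pde4a did not pass the test. It was at 9.99, 6.55, 7.01, 6.16 and 6.07 CPM in controls 1 to 5 and at 6.38, 7.0, 5.44 and 4.11 CPM in fusion 6 to 9, with overlapping groups and a log2 fold change of -0.31 ± 0.20 (SE; 95% interval -0.76 to 0.13; adjusted p = 0.336, edgeR). Within the set of higher ribosomal share the difference was -0.83 (adjusted p = 0.0487) and within the other 0.05. A difference of the genotype effect between the sets passed the test for none of the 10 genes (interaction term, edgeR adjusted p from 0.175 to 0.826 over all genes tested), with Pde4a, Sik2 and Pde4b closest (unadjusted p = 0.0106, 0.0171 and 0.0219).

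**Figure D2:**
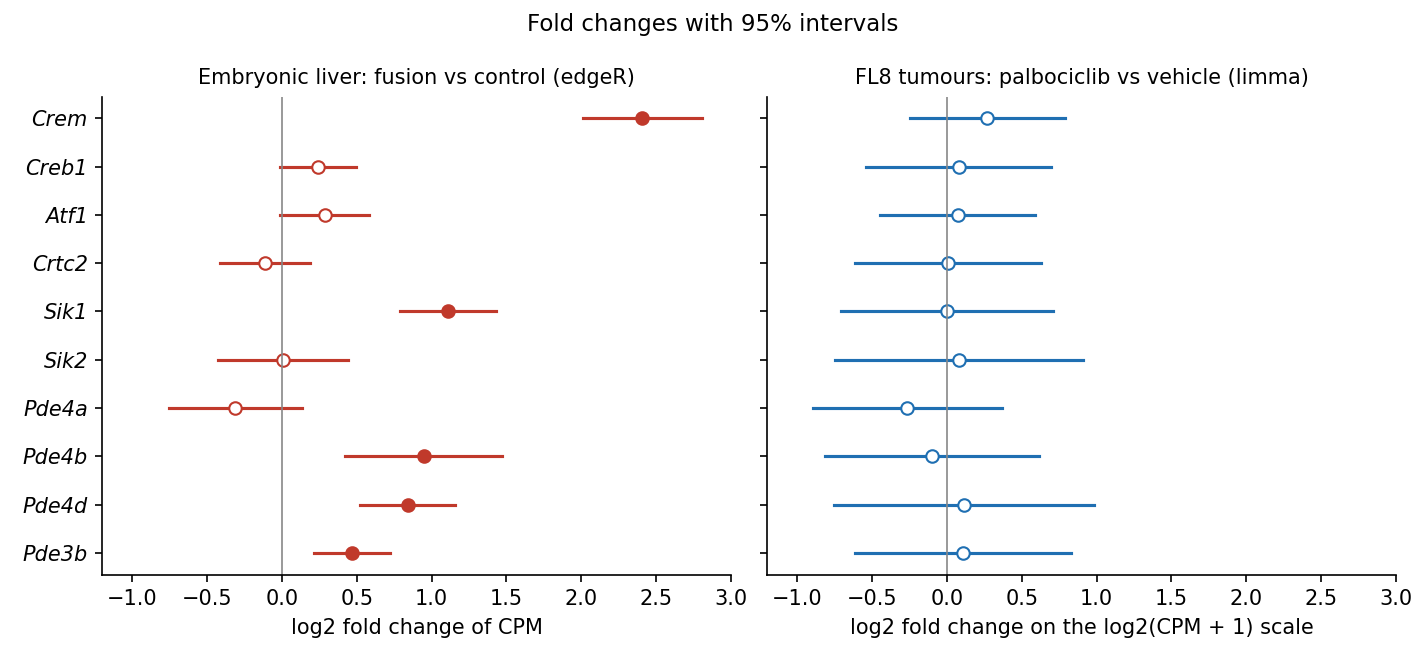
Log2 fold changes (points) with 95% intervals (lines) of the 10 genes, fusion against control livers from edgeR on the left and palbociclib against vehicle tumours from limma on the right. Filled points pass an adjusted p of 0.05: 5 genes on the left, led by Crem at 2.41, and none on the right, where all 10 intervals cross 0.

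Because paralogs were measured in the same libraries, their ratio within a library does not depend on how libraries are scaled. Ratios of CPM per kilobase of exon are given for 7 pairs, as a description with no test, because the pairs were picked after the values were seen. Per kilobase Crem was below Creb1 in all 5 control livers, with log2 ratios of -0.52, -1.27, -0.49, -0.81 and -0.71, and above it in all 4 fusion livers, with 1.56, 1.40, 1.61 and 1.03. The group means differed by 2.16. The sign of this ratio rests on the exon lengths used, 5.895 kilobases for Crem and 13.7 for Creb1: in CPM alone fusion 9 had Crem at 18.2, below Creb1 at 20.8, while the difference between groups does not depend on length. Against Atf1, Crem was lower per kilobase in every liver, with a mean log2 ratio of -3.44 ± 0.29 (SD, n = 5) in controls and -1.34 ± 0.33 (SD, n = 4) in fusion livers. The mean ratio of Creb1 to Atf1 differed by -0.06 between the groups, which overlapped.

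Among the kinases, Sik1 over Sik2 had log2 ratios of 2.94, 3.26, 3.95, 3.82 and 3.63 in controls and 4.42, 4.48, 5.03 and 4.80 in fusion livers, with no overlap. Pde4b over Pde4a went from -1.04 ± 0.19 (SD, n = 5) to 0.15 ± 0.32 (SD, n = 4), and Pde4d over Pde4a from -0.17 ± 0.47 to 1.00 ± 0.28. The groups did not overlap in either ratio. Pde4b over Pde4d differed by 0.02 between the groups, which overlapped, with -0.62 and 0.56 within the sets of higher and lower ribosomal share. For Sik1 over Sik2 the difference was 1.82 and 0.65 within these sets, for Pde4d over Pde4a 1.78 and 0.69, and for Crem over Creb1 2.21 and 2.15.

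**Figure D3:**
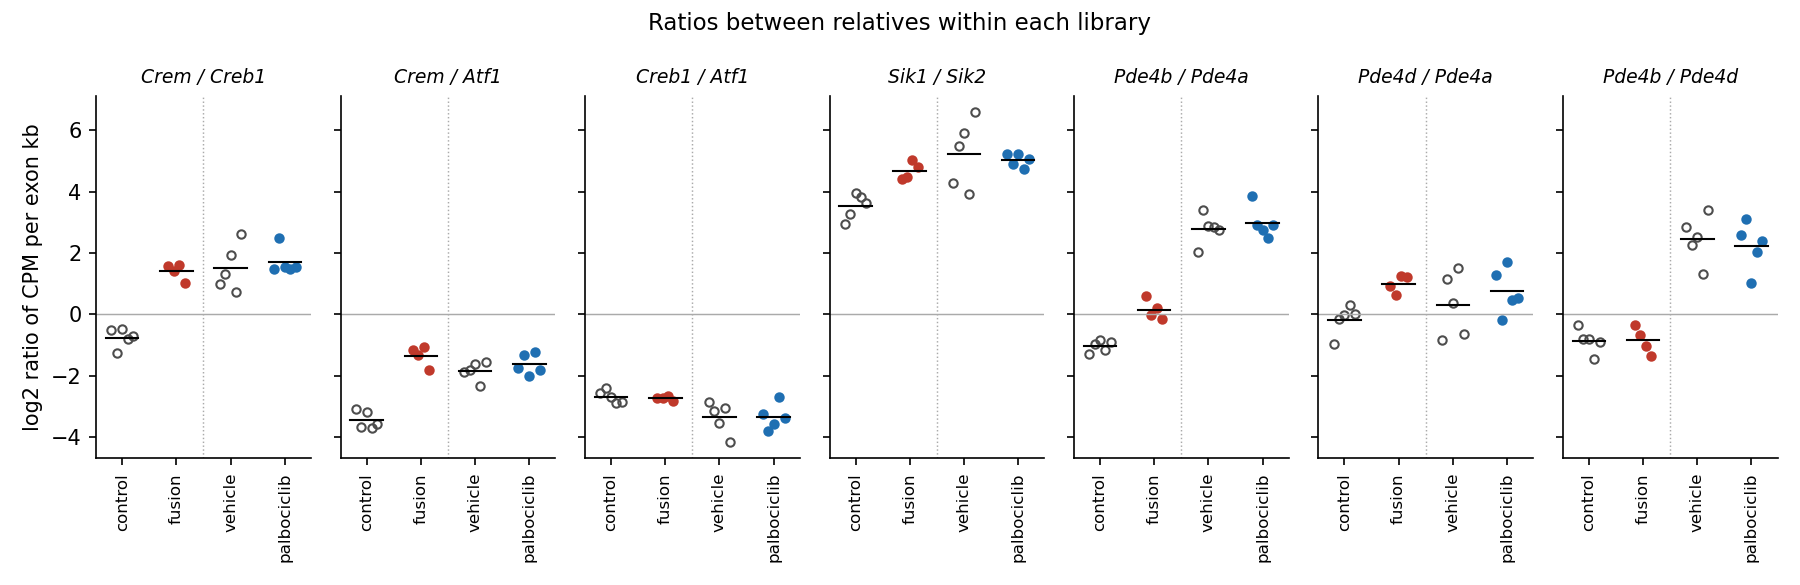
Log2 ratio between related genes within each library, from CPM per kilobase of exon, with 1 point per liver or tumour and a horizontal line at each group mean. In the livers Crem over Creb1 changes from -0.76 in controls to 1.40 with the fusion, and in the tumours all 7 ratios overlap between treatments. The dotted line separates the experiments, which differ in material and processing and were not tested against each other.

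Compared per kilobase of exon, the order of the 10 genes in control livers ran from Atf1 (mean 9.63 CPM per kilobase) through Crtc2 (7.22), Sik1 (5.14), Pde3b (3.28), Creb1 (1.49), Pde4a (0.935), Crem (0.884), Pde4d (0.824) and Pde4b (0.451) to Sik2 (0.445). The neighbours Atf1 and Crtc2, Crtc2 and Sik1, Pde4a and Crem, Crem and Pde4d, and Pde4b and Sik2 overlapped in their ranges over the 5 livers. In the fusion livers Sik1 (11.1) stood second, overlapping Atf1 (11.8), and Crem (4.75) was at rank 4, overlapping Crtc2 (6.68) and Pde3b (4.53). Creb1 (1.76), Pde4d (1.48), Pde4b (0.860), Pde4a (0.749) and Sik2 (0.442) followed, each overlapping the next.

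Genes were also ranked by the likeness of their profile, as the root-mean-square distance of mean-centred log2 CPM over the 9 livers, among the other 13315 genes tested. These distances describe profiles that share libraries, depth and genotype. Nearest to Crem were Gdpd5 at 0.21, Etnppl at 0.28 and Mat1a, which makes S-adenosylmethionine in adult liver, at 0.28, and the nearest of the other 9 genes was Sik1 at rank 111. Errfi1, Spin1 and Mrps31 were nearest to Sik1 (0.14 to 0.16), and Chchd3, Adgrl4 and Grsf1 to Pde4d (0.04 to 0.10). Tspan9, Rasgef1b and Rasal1 were nearest to Pde4b (0.18 to 0.25), and Usp24, the retinoblastoma gene Rb1 and Ccdc117 to Pde3b (0.08 each).

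Other genes of the pathway were read from 8 lists of 113 genes, of which 91 were tested in the embryos, 12 rose and 5 fell, where 12.8% of all genes were called. Upstream, the list of receptors coupled to the stimulatory G protein had 0 of 9 tested higher and 1 lower: Gcgr, the glucagon receptor, fell by 1.83 ± 0.20 on the log2 scale (SE), with 70.3 ± 13.2 CPM (SD, n = 5) in controls and 19.9 ± 5.43 CPM (SD, n = 4) with the fusion (adjusted p = 0.000328, edgeR). Among 12 adenylyl cyclases and G proteins only the inhibitory subunit Gnai3 was called, as higher (0.78 ± 0.14, adjusted p = 0.00552). Of 9 PKA subunits and inhibitors 2 rose, Prkaca, as above, and Prkar1a, the regulatory subunit that holds it inactive (199 ± 25.7 to 309 ± 15.9 CPM; log2 fold change 0.63 ± 0.13, adjusted p = 0.00910).

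At the level of the factors, 15 further CREB family members and co-activators held 1 call, a fall of Crtc1 (-0.80 ± 0.19, adjusted p = 0.0182, edgeR). In the SIK list Cab39, a partner of the upstream kinase LKB1, rose by 0.54 ± 0.14, the calcineurin subunit Ppp3r1 rose by 0.34 ± 0.10, and Hdac5, a class IIa deacetylase that SIK kinases phosphorylate, had a log2 fold change of -0.66 ± 0.19, out of 12 tested (adjusted p from 0.0285 to 0.0432, edgeR). The other phosphodiesterases held 1 call of 10, Pde1c (-0.89 ± 0.25, adjusted p = 0.0391), at 1.57 CPM in controls. Of 10 other effectors and feedback genes 1 was called, Rgs16, which shortens G protein signals, at 33.5 ± 14.5 CPM (SD, n = 5) in controls and 5.84 ± 2.56 CPM (SD, n = 4) in fusion livers (-2.54 ± 0.38, adjusted p = 0.00216). Medians of these 7 lists lay between -0.16 and 0.31, beside -0.01 over all genes.

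CREB target genes were the list with the most calls: 7 of 14 tested rose, 0 fell, and the median log2 fold change was 0.93, where 5.99% of all genes rose, 6.81% fell and the median was -0.01. The 4 with the smallest adjusted p were Ppargc1a, the co-activator of gluconeogenesis and mitochondrial genes (2.92 ± 0.18, adjusted p = 8.45e-06, edgeR), Tat, tyrosine aminotransferase (4.68 ± 0.32, adjusted p = 1.18e-05), Tgm2, a transglutaminase (1.86 ± 0.21, adjusted p = 0.000395), and Pck1, the gluconeogenic PEP carboxykinase (5.32 ± 0.62, adjusted p = 0.000519). Of the immediate-early genes in the list, named after their values were seen, Junb (1.26 ± 0.24, adjusted p = 0.00723) and Dusp1 (0.65 ± 0.16, adjusted p = 0.0216) rose, and Nr4a1 (0.29 ± 0.26), Fos (-0.12 ± 0.33) and Egr1 (0.59 ± 0.27) did not pass the test. The list was written with earlier results of these livers known and is no independent evidence of its direction. Hepatocyte markers, 10 of 10 tested and 3 called with a median of -0.14, overlapped in their sums between the groups (159455 to 217468 against 174871 to 234704 CPM), and cholangiocyte markers, 5 of 6 in the table and 3 called, were lower with no overlap (46.7 to 77.6 against 12 to 40.4 CPM). These sums, too, were scaled to the library total and not by TMM. The part of these cells in the results was not tested.

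In the FL8 tumours the question was whether palbociclib moved these genes. None of the 10 passed the test (limma on log2(CPM + 1), adjusted p of 0.953 or more), where 0% of the 12829 genes tested were called. For none of the 10 did all palbociclib tumours lie above all vehicle tumours (0.834% of all genes) or below them (0.101%). At an unadjusted p under 0.05 there were 0 of the 10 and 586 genes in all (4.57%). On the recovered reads edgeR called 0 genes, with 773 at an unadjusted p under 0.05, and DESeq2 called 7, none of the 10. The log2 fold changes of the 10 genes lay between -0.26 (Pde4a) and 0.27 (Crem), and their 95% intervals reached from -0.89 to 0.98. For some of them the interval thus holds a change close to 1 on the log2 scale. How large a change the fit could call was not tested. Outside the 10 genes, Nr4a1 at -1.59 ± 0.52 (SE) was not called either (adjusted p = 0.953, limma). The median over all genes was 0.14 on the deposited scale and 0.00 after TMM scaling. Creb1, Atf1, Crtc2, Sik2, Pde4d and Pde3b, between 0.01 and 0.12 as deposited, turned to between -0.14 and -0.02 after TMM scaling, so that no direction is given for them.

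**Figure D4:**
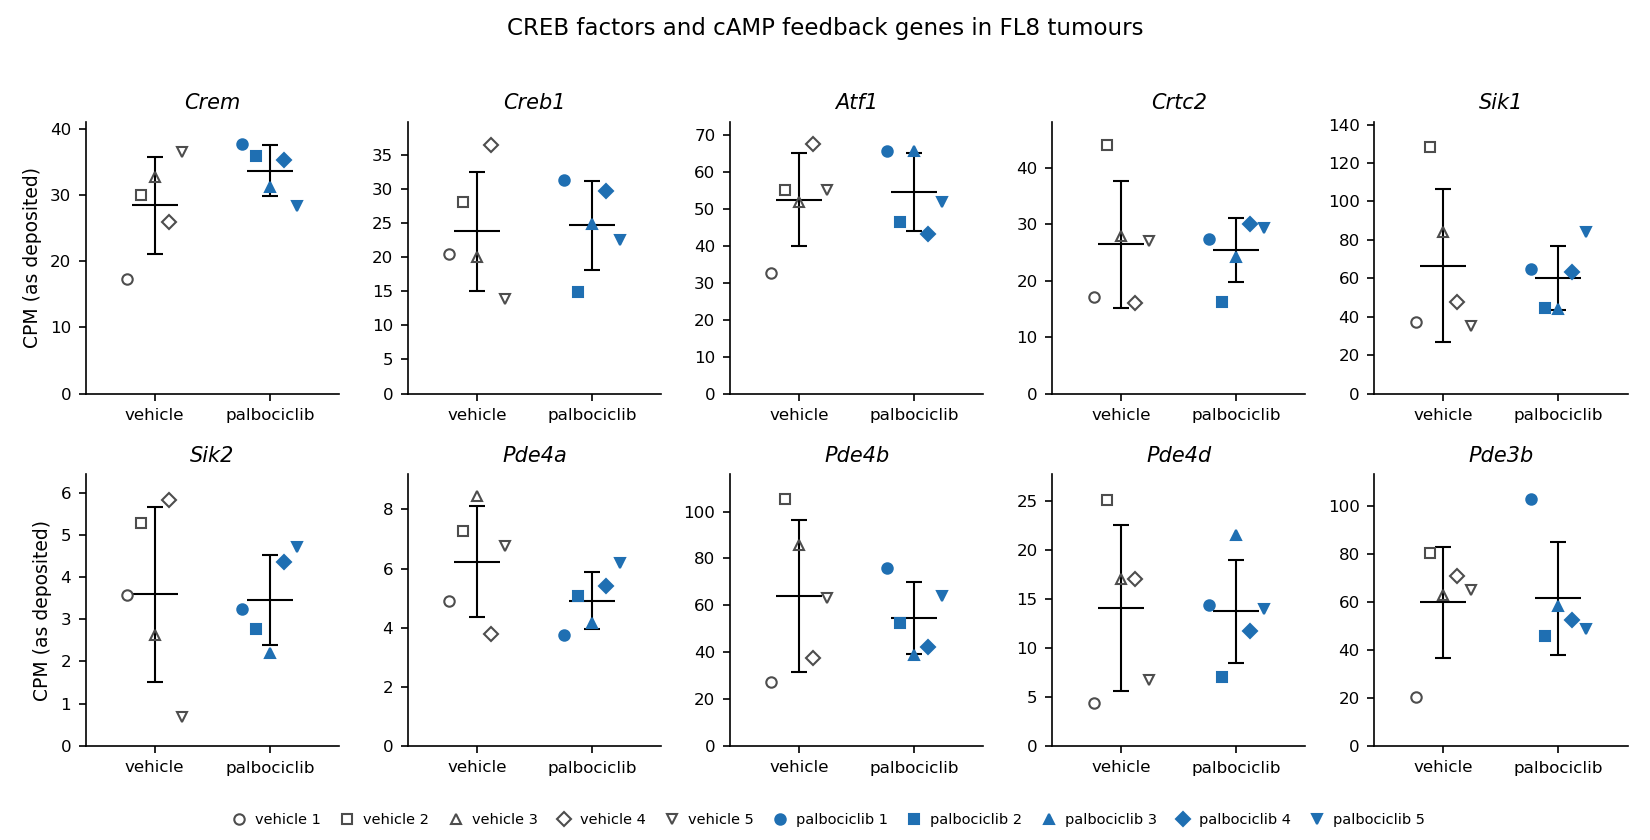
CPM as deposited of each of the 10 genes in the 5 vehicle (open) and 5 palbociclib (filled blue) tumours, 1 panel per gene, with each y axis starting at 0. Horizontal lines are group means and bars are 1 SD. The treatments overlap in all 10 panels, and vehicle 1 is the lowest vehicle tumour for Crem, Atf1, Pde4b, Pde4d and Pde3b.

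Crem was at 17.3, 30.0, 32.8, 26.0 and 36.5 CPM in vehicle tumours 1 to 5 and at 37.8, 36.0, 31.3, 35.3 and 28.4 CPM in palbociclib tumours 1 to 5. The treatments overlapped, and vehicle 1 was the lowest of the 10 tumours. The log2 fold change of 0.27 ± 0.25 (SE; 95% interval -0.25 to 0.79) became 0.11 without vehicle 1, whose Crem level was 32.3 CPM when mitochondrial genes were left out of its total. Creb1 ranged from 13.9 to 36.5 CPM in vehicle and from 14.9 to 31.4 CPM in palbociclib tumours, and Atf1 from 32.7 to 67.6 and from 43.2 to 65.7 CPM. Crtc2 covered 16.1 to 44.0 CPM with vehicle and 16.3 to 30.0 CPM with palbociclib.

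Sik1 varied most among vehicle tumours in absolute level. It was at 37.4, 128, 84.3, 47.6 and 35.2 CPM in vehicle 1 to 5 and at 65.0, 44.7, 44.1, 63.2 and 84.2 CPM in palbociclib 1 to 5. All palbociclib tumours fell inside the vehicle range, and the log2 fold change was 0.00 ± 0.34 (SE; 95% interval -0.71 to 0.71; adjusted p = 1, limma). Sik2 was the lowest of the 10 per kilobase of exon, with 2 reads in vehicle 5, below the floor of 3 reads (1.01 CPM in that library), and 2.19 to 5.81 CPM in the other 9 tumours.

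Pde4b had more CPM in each tumour than in any embryonic liver, in tables that were normalized separately and were not tested against each other. It was at 27.4, 105, 85.8, 37.6 and 63.3 CPM in vehicle 1 to 5 and at 75.9, 52.6, 38.7, 42.0 and 63.9 CPM in palbociclib 1 to 5, so that the treated tumours lay within the vehicle range. Its log2 fold change was -0.10 ± 0.34 (SE; 95% interval -0.82 to 0.61). Vehicle 1, with the highest macrophage and leukocyte sums (1463 and 678 CPM), had the lowest Pde4b level, and with mitochondrial genes left out it stood at 51.3 CPM, between vehicle 4 at 39.2 CPM and vehicle 5 at 65.0 CPM. The part of these cells in the result was not tested.

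Pde4d was at 4.34, 25.1, 17.0, 17.0 and 6.77 CPM in vehicle 1 to 5 and at 14.4, 6.98, 21.6, 11.7 and 13.9 CPM in palbociclib 1 to 5. The low vehicle tumours were 1 and 5, and the log2 fold change of 0.12 ± 0.41 (SE) became -0.20 without vehicle 1 and -0.55 without both, none past the test. Pde3b was at 20.3, 80.5, 63.0, 70.8 and 65.0 CPM with vehicle and at 103, 45.8, 58.2, 52.6 and 48.7 CPM with palbociclib. Palbociclib 1 was the highest and vehicle 1 the lowest of the 10 tumours, and the log2 fold change of 0.11 ± 0.34 became -0.24 without vehicle 1. Pde4a, at 3.80 to 8.44 and 3.77 to 6.20 CPM, had the lowest fold change of the 10 (-0.26 ± 0.30; 95% interval -0.89 to 0.37).

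Ratios between relatives overlapped between vehicle and palbociclib for all 7 pairs. Per kilobase of exon Crem was above Creb1 in all 10 tumours, with log2 ratios of 0.73 to 2.62 in vehicle and 1.47 to 2.49 in palbociclib tumours, as it was in the fusion livers (1.03 to 1.61) and was not in the controls. The sign again rests on the exon lengths used. In CPM alone Crem was below Creb1 in vehicle 1 (17.3 against 20.5 CPM) and vehicle 4 (26.0 against 36.5 CPM), and above it in the other tumours. Pde4b over Pde4a was 2.02 to 3.40 in vehicle and 2.5 to 3.87 in palbociclib tumours, beside -0.14 to 0.58 in fusion livers. Scaling does not enter these ratios, but the 2 experiments differ in material and in the processing tools named by the submitters. The livers and tumours were not tested against each other.

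The order of levels per kilobase of exon in vehicle tumours was Atf1 (mean 17.1 CPM per kilobase), Sik1 (13), Pde3b (6.58), Crtc2 (6.46), Pde4b (6.05), Crem (4.84), Creb1 (1.73), Pde4d (1.17), Pde4a (0.814) and Sik2 (0.376). The only neighbours whose ranges over the 5 tumours did not overlap were Crem and Creb1. The palbociclib tumours had the same order except that Crem (5.73) stood before Pde4b (5.17), and there only Pde4b and Creb1 did not overlap. Of the 113 genes in the pathway lists 85 were tested in the tumours and 0 were called by limma. CREB targets had a median log2 fold change of -0.50, beside 0.14 over all genes, and 4 of 17 tested had an unadjusted p under 0.05, where 4.57% of all genes did: Nr4a1 (-1.59 ± 0.52), Areg (-1.25 ± 0.43), Junb (-1.04 ± 0.40) and Dusp1 (-0.92 ± 0.43), which were named after their values were seen and had an adjusted p of 0.953 each. The list did not move together. Of the 17, 5 had a positive log2 fold change: G6pc (1.02 ± 0.57), Irs2 (0.37 ± 0.43), Tat (0.36 ± 0.53), Ppargc1a (0.17 ± 0.32) and Tgm2 (0.11 ± 0.37). Erythroid markers, 9 of 10 tested and 0 called, had a median of -1.66 and summed to 96685 CPM in vehicle 3 and 36701 CPM in vehicle 2, to 1298 to 16926 CPM in the other vehicle tumours and to 1731 to 8457 CPM with palbociclib. Their part in these values was not tested.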

How the data were processed

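Members and gene lists were chosen with earlier results of these data known. Raw counts of 13549 gene symbols were deposited by the authors for the embryos, beside 9 rescaled columns that were left aside. For the tumours the authors deposited CPM (counts per 1000000) of 17606 Ensembl IDs, and all values (100%, tolerance 0.01 of a read) were whole multiples of 1 read, so that reads could be recovered. Per the submitters' processing notes, which give no role or order, STAR 2.5.1b and DESeq2 (embryos), and cutadapt 2.10, HISAT2, featureCounts, DESeq2 and R 4.1.2 (tumours) were used with mm10. The annotation, the strand setting, the treatment of reads shared by related genes and the embryo counting tool are not given in the sources used here.

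The quasi-likelihood test of edgeR 4.0.16 (R 4.3.3, TMM, filterByExpr) was applied to the embryo counts. Printed embryo CPM of genes are TMM-scaled, except for Xist. The Xist values, the marker sums and the floor in the embryos are scaled to the library total only. The design named limma for tumour values in CPM, and limma 3.58.1 (trend) was run on log2(CPM + 1), leaving out genes whose mean was under 1 CPM, a scale that understates the change of low genes. Benjamini-Hochberg adjustment ran over all genes tested, with a threshold of 0.05. Both fits were also run on simulated data with known changes, a check of the code that does not bear on the results given here. Alternatives were other size factors, filters and pseudocounts, DESeq2 1.42.0, covariates, subsets and each library left out. Named were the 10 members, Prkaca and Dnajb1, up to 4 genes past the threshold per pathway list, and the 3 nearest profiles of each member called in the embryos. Coordinates and exon lengths are from GENCODE M21 (GRCm38, the build mm10), and levels between genes are CPM per kilobase of all annotated exons. Depth was 7.66 to 45.6 M (1000000) counts in the embryos and 2.96 to 43.1 M reads in the tumours, where 3 reads, taken as the floor, are 0.0658 to 0.392 and 0.0695 to 1.01 CPM, for counting error only. No 2 libraries of a group agreed within counting noise (lowest chi-square per degree of freedom 12.5).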

Additional observations from a re-analysis of the deposited data

Results flagged for a closer look

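Each of the 40 groups of values (10 genes in 4 groups) was screened for 1 library far from the others, and 3 were found, where chance gives about 1 in 20, or 2. Crem in control 2 was at 4.04 CPM, below the 5.26 to 5.69 CPM of the other 4 control livers, so that this library lowers the control mean of the gene with the largest rise among the 10. That value rests on 29 counts in the shallowest embryo library. With each embryo library left out, the log2 fold change of Crem lay between 2.32 and 2.57. Pde4a in control 1 was at 9.99 CPM, above the 6.07 to 7.01 CPM of the other controls. Pde3b in palbociclib 1 was at 103 CPM, above the 45.8 to 58.2 CPM of the other treated tumours, and without that tumour the palbociclib difference of Pde3b was -0.09 on the log2 scale.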

How the results depend on the processing

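In the embryos, with 1704 genes called, Crem, Sik1 and Pde4d kept their direction and call in all alternatives run. With each library left out, between 3 and 5 members and between 969 and 1581 genes were called, 969 without control 3, 987 without fusion 8 and 1107 without fusion 7, and 3 members without control 4, fusion 6 or fusion 8. The ribosomal set as a covariate gave 4345 genes, the set of higher share alone 2589 and the set of lower share alone 2950. For these differences the cause was not tested. Sik2, at 0.01, turned to -0.10 with Xist as a covariate, to -0.47 within the set of higher share and to between -0.13 and -0.0044 without control 3 or 4 or fusion 6 or 7 (-0.13 to 0.11 over all 9 livers left out), and Pde4a turned to 0.054 within the set of lower share. Of 167 alternative embryo fold changes 146 kept direction and side of the threshold, 12 lost the call, 2 gained it (Atf1 with the covariate, Pde4a within the set of higher share) and 7 turned.

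In the tumours 0 members were called in any alternative run, and DESeq2 called 7 genes where limma called 0. Of 188 alternative fold changes 53 turned in direction, none past the threshold. For Creb1, Atf1, Crtc2, Sik2, Pde4d and Pde3b in this order, TMM gave -0.070, -0.079, -0.14, -0.036, -0.016 and -0.041, leaving out mitochondrial genes -0.064, -0.072, -0.13, -0.043, -0.0079 and -0.033, edgeR -0.12, -0.068, -0.18, -0.24, -0.098 and -0.038, DESeq2 -0.13, -0.079, -0.20, -0.28, -0.10 and -0.051, and leaving out vehicle 1 and 5, which was chosen after seeing the data, -0.19, -0.10, -0.12, -0.30, -0.55 and -0.27. A pseudocount of 0.1 gave Sik1 0.0019. Over all alternatives other than leaving out a single tumour, Sik1 lay between -0.45 and 0.0019 and Pde4b between -0.39 and -0.10. With each tumour left out, Creb1 lay between -0.088 and 0.25, Atf1 between -0.085 and 0.17, Crtc2 between -0.14 and 0.21, Sik1 between -0.18 and 0.28, Sik2 between -0.24 and 0.26, Pde4b between -0.36 and 0.12, Pde4d between -0.20 and 0.37 and Pde3b between -0.24 and 0.25. With the tumour number as a replicate block 0 genes and 0 members were called (460 genes at an unadjusted p under 0.05), and same-numbered tumours did not deviate together (correlations from -0.32 to 0.00, no tumour closest to its own number), so the numbers were not read as pairs. Embryo numbers are not shared between groups, and no block was possible there. Depth limits Sik2, Pde4a and Pde4d in vehicle 5, with 2, 20 and 20 reads.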
